A study of Mus musculus with 4 samples.

Results

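The immune cells of mouse Achilles tendon were taken as every cell to which the authors' deposited annotation gives the label Immune Cells. There were 92 such cells among 1191 sequenced cells, and 1099 cells carried one of the other 12 labels. The study profiled single cells of the Achilles tendon, which links the calf muscles to the heel, by droplet-based RNA sequencing (10x Genomics Chromium, version 3 chemistry). Counts are unique molecular identifiers (UMIs), short tags that let copies of 1 captured transcript be counted once. The samples form 1 group of 4 libraries, all from male C57Bl/6 mice aged 6 weeks, and no treatment or genetic change is named. It is not stated if 1 mouse or a pool of mice gave each library, so p-values over libraries refer only to these libraries and cannot be read as a spread between mice. Those of the fit of immune against other cells rest on a variance pooled over genes. Immune cells numbered 70, 10, 9 and 3 in libraries 1, 2, 3 and 4.

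Macrophages are resident phagocytes of nearly all tissues. They depend on signalling through Csf1r, the receptor for colony-stimulating factor 1, take up dying cells and debris, break them down in lysosomes, and can show antigen to T cells on major histocompatibility complex (MHC) class II molecules. Many resident macrophages also make the subunits of C1q, the recognition protein that starts the classical complement pathway. In connective tissue, macrophages along vessels are often marked by the hyaluronan receptor Lyve1 and the folate receptor Folr2, while macrophages with little Lyve1 and much MHC class II are often found elsewhere in the same tissue.

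The labelled cells were first described by 4 macrophage genes. C1qa was found in 71 of the 92 immune cells, C1qb in 68, Csf1r in 78 and Ctss, which encodes the lysosomal protease cathepsin S, in 86. Ctss was not limited to macrophages, since it was also found in 7 of the 8 B-like cells described below. Among the 1099 other cells, the same genes were found in 8, 11, 13 and 10 cells. The share of cells with a C1qa UMI was 77.2% of immune cells against 0.728% of other cells, and 78.2% against 0.303% after every cell was thinned to 2400 UMIs. The authors' labels rest on these counts too, so these shares describe the labelled cells and do not test the label. The cells without these genes are described below.

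The genes C1qb (chr4:136880126-136886200), C1qc (chr4:136889801-136892936) and C1qa (chr4:136895916-136898844) lie side by side, and Ctss lies at chr3:95526786-95556405. The sequences around the start sites of C1qb, C1qc and Ctss are shown because these genes were high in immune cells and nearly absent from other cells. They come from RefSeq on build GRCm38.p6 and run 5′ to 3′ on the gene's strand from 250 bases before the start site to 20 bases after it. Capitals mark the letters AGGAAGT or their reverse complement ACTTCCT, a form of the site bound by ETS-family factors such as PU.1, the product of Spi1.
C1qb, chr4:136886181-136886450, minus strand: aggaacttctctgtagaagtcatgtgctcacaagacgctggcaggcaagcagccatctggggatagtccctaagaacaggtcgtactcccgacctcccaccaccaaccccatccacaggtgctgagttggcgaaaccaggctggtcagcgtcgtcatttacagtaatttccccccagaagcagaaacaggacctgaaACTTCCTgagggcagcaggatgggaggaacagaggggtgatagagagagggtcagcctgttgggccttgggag
C1qc, chr4:136892895-136893164, minus strand: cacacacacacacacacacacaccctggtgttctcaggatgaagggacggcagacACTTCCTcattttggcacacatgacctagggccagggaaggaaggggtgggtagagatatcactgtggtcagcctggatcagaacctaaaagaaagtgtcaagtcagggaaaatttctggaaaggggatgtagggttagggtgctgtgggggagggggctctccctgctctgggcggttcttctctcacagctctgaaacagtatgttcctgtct
Ctss, chr3:95526536-95526805, plus strand: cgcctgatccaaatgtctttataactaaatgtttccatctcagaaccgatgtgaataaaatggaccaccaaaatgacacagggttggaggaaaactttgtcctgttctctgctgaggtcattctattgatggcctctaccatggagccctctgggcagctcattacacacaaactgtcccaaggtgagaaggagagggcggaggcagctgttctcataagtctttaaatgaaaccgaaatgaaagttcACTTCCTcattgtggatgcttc
The marked letters begin 53 bases before the start site of C1qb, 195 bases before that of C1qc and 2 bases before that of Ctss, where they run across the start. On either strand they occurred in 9.35% of the 32851 windows of 300 bases in the table. Of 7 macrophage marker genes with such a window, 5 held them (C1qb, C1qc, Ctss, Mrc1 and Fcgr1) and Cd68 and Mertk did not. The letters were chosen after these windows had been read, so the count describes the windows and is not evidence of binding.

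Library 1 held most of the immune cells, and the values of the other libraries rest on few cells. Immune cells carried 539734, 43125, 75712 and 49822 UMIs in libraries 1 to 4, with a median per cell of 7255.5, 4184.5, 7194 and 19454. Other cells had medians of 7514.5, 7872, 7602 and 8713.5 UMIs. The difference in UMIs per cell averaged 1597 ± 6298 (SD, n = 4 libraries), with immune cells higher in 1 of 4 libraries (two-sided exact sign-flip permutation test, p = 1.0, where 4 libraries allow no p below 1 in 8). Genes per cell differed by 71.6 ± 580 (exact permutation p = 0.75) and the mitochondrial share by 0.0781 ± 0.291 percentage points (exact permutation p = 0.75). Without red blood cells among the other cells, the mitochondrial share of immune cells was 0.497 percentage points lower on average, in 4 of 4 libraries, which gives the smallest p that 4 libraries allow. No cell barcode was repeated between libraries. In each library a share of genes is listed at 0 in every cell, from 401 genes in library 1 to 3210 in library 4, and only 151 to 252 genes are found in 1 or 2 cells against 609 to 698 in exactly 3. Whether genes found in very few cells of a library were removed is not known, so a gene listed at 0 in a library with few immune cells may have been present there. C1qb and C1qc are examples: both are listed at 0 in library 4, where C1qa had 81 UMIs.

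Immune cells made up 12.1% of library 1 (exact Clopper-Pearson 95% interval 9.53 to 15.0), 4.07% of library 2 (1.97 to 7.35), 3.52% of library 3 (1.62 to 6.57) and 2.75% of library 4 (0.571 to 7.83). The mean was 5.60% ± 4.35 (SD, n = 4). The interval of library 1 lay above those of the other libraries, which overlapped each other. With red blood cells left out of the total, the shares were 13.3%, 5.46%, 3.72% and 3.16%.

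The 92 cells were mostly macrophages, with a small number of B cells, cells rich in MHC class II transcripts, and single cells of other kinds. By content of marker genes, 76 cells held 3 or more genes of the macrophage list and of no other immune list. The B cell list was met in the same way by 8 cells, the T cell and natural killer (NK) cell lists together by 2, the macrophage and monocyte lists together by 2, the platelet list by 2, and no list by 2. The mixture differed between libraries. In library 3 all 9 immune cells were in the macrophage class, and in library 1 this held for 62 of 70. In library 2 only 3 of 10 were in it, against 5 in the B cell class and 2 in the platelet class. In library 4 the class held 2 of 3 cells. Dendritic, neutrophil and mast cell lists were not met by any cell, but several of their defining genes (Flt3, Xcr1, Clec9a, S100a9 and Cpa3 among them) were not analysed here, so such cells could not be called by those genes. Only 2 genes of the mast cell list were available, so no cell could meet it, and only 3 of the neutrophil list.

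**Figure D1:**
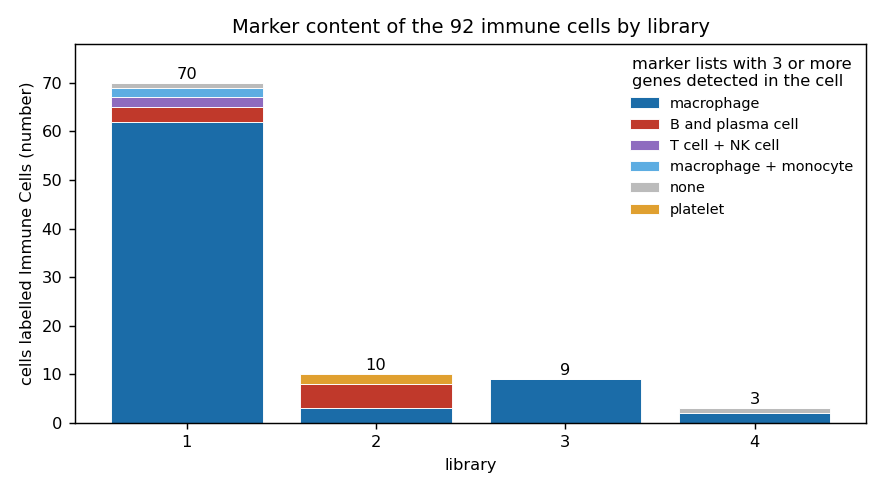
Number of cells labelled Immune Cells in each of the 4 libraries, coloured by the marker lists of which a cell held 3 or more genes. Macrophage cells fill most of the bar in libraries 1 and 3, while 5 of the 10 cells of library 2 carry B cell genes.

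Clustering of the 92 cells alone gave 82 cells, 8 cells and 2 single cells at 4 clusters. At 6 clusters, an alternative to the main choice of 4, the largest group divided further, into 65 cells, 16 cells and 1 more single cell. The clusters were built from these counts, so their genes are described and not tested. The 65 cells (52, 2, 9 and 2 in libraries 1 to 4) are called macrophage-like here. All 10 macrophage markers were detected among them, and C1q transcripts in 64 cells, with a median of 65 UMIs per cell and a highest value of 194. Lyz2, which encodes lysozyme, was found in 65 of 65 of these cells and Lyve1 in 59. The genes that led this cluster over the other immune cells were Aqp1 (the water channel aquaporin 1) at 2624 CPM (UMIs of a gene per 1000000 UMIs of the same cells) against 29.6, Fxyd2 (a regulator of the sodium-potassium pump) at 1469 against 47.4, Yae1d1, Ccnb1ip1 and Ecm1. None of the macrophage markers was among its 10 leading genes, and all 10 were also detected in the 16-cell cluster. Ctsk, which is on the osteoclast list, was among the leading genes with UMIs in 13 cells. For Yae1d1, 94.6% of the UMIs in immune cells came from 1 cell.

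The 16-cell cluster (14, 1, 0 and 1 in libraries 1 to 4) was left without a cell type name, because its members carried different genes. By the marker lists, 10 of its cells were in the macrophage class, 2 in the macrophage and monocyte class, 2 in the T and NK class and 2 in no class. Cd74, the chain that escorts MHC class II molecules, stood at 8739 CPM there against 5.56 CPM in the macrophage-like cluster. H2-Aa, H2-Ab1 and H2-Eb1, the MHC class II chains themselves, stood at 2878, 2561 and 2273 CPM against 0, 18.5 and 0. The chemokine receptor Ccr2 and the surface protein Ly6c2, both typical of monocytes from blood, reached 619 and 718 CPM. Ccr2 was found in 8 of the 16 cells and Ly6c2 in 5, with 53.7% of the Ly6c2 UMIs in 1 cell. The inflammatory chemokine Cxcl2 reached 1209 CPM and was found in 7 of 16 cells, with 49.4% of its UMIs in 1 of them. Genes that respond to tissue dissociation also stood higher there than in the macrophage-like cluster, among them Hspa1a at 1156 against 165 CPM, Hspa1b at 899 against 98.2, Jun at 1186 against 426, Zfp36 at 959 against 195 and Nr4a1 at 347 against 18.5, and their part in these values was not tested. Lyve1 was present in 3 of the 16 cells and C1q transcripts in 6. Of the leading genes, Fscn1 and Ccl22, which mature dendritic cells express, came from 1 cell of library 4, with 133 UMIs of Fscn1.

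The 8-cell cluster (3 in library 1 and 5 in library 2) is called B-like here. Its leading genes were Igkc at 4957 CPM, Ighm at 5511, Cd79a at 1970, Cd79b at 1786 and Ebf1 at 1724, which encode immunoglobulin chains, parts of the B cell receptor and a B cell transcription factor. Cd79a and Ighm were found in 8 of 8 cells, and Igkc and Ms4a1 in 7. C1qa, Csf1r, Lyz2 and Lyve1 had 0 UMIs in this cluster. Other macrophage markers were present: Ctss had 12 UMIs in 7 of the 8 cells, and C1qc and Cd68 had 1 UMI each. Of the 3 single cells, 2 came from library 2 and carried Nrgn, Gng11, Ppbp and Itga2b, genes of platelets and their precursors, at depths of 1373 and 1333 UMIs. The third had 1118 UMIs, the lowest depth among immune cells, and held 8 of 10 macrophage markers.

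MHC class II transcripts separated the cells into 2 sets with a wide gap between them. The summed UMIs of H2-Aa, H2-Ab1, H2-Eb1 and Cd74 were 0 in 65 cells and at most 8 in 77 cells, and lay between 37 and 660 in the other 15. This division was drawn after the values were seen. Of the 15 cells, 7 were B-like, 8 were in the 16-cell cluster and 0 in the macrophage-like cluster, whose highest cell had 3 UMIs. The 8 cells of the 16-cell cluster came from library 1 (6 cells), library 2 (1 cell) and library 4 (1 cell), and library 3 had 0. Since H2-Aa, H2-Ab1 and H2-Eb1 are listed at 0 in libraries 3 and 4, the sum there is Cd74 alone. The library 4 cell had 127 UMIs of Cd74. Lyve1 was found in 62 immune cells, of which 1 was among the 15. C1q transcripts were found in 72 cells, of which 5 were among the 15, so C1q and high MHC class II did occur together in a few cells. Ly6c2 or Ccr2 was found in 11 cells, all from library 1, and 7 of these had no C1q UMI.

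**Figure D2:**
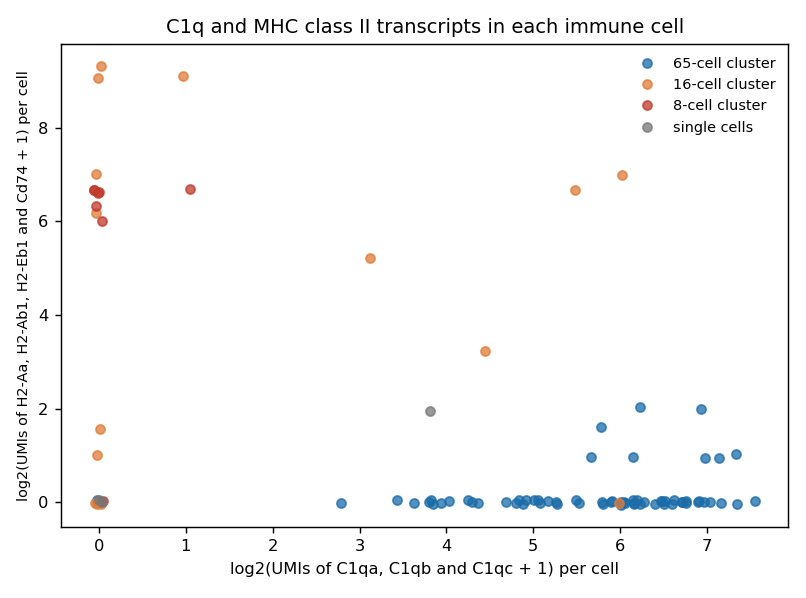
Each point is 1 of the 92 immune cells. The axes give log2 of 1 plus the UMIs of C1qa, C1qb and C1qc (horizontal) and of H2-Aa, H2-Ab1, H2-Eb1 and Cd74 (vertical), with a small random shift so that points at 0 can be seen. The 65-cell cluster lies along the bottom at 3 or fewer MHC class II UMIs, and the 15 cells at 37 or more belong to the 16-cell and 8-cell clusters.

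Across the 92 cells, as a description over cells that share libraries and differ in depth, Lyve1 and C1q varied together (Spearman's rho 0.65) and Lyve1 and MHC class II in opposite directions (-0.43). These values mix cell types, and over the 84 cells left without the B-like cells they were 0.56 and -0.30. Within the 65 macrophage-like cells, the value for Lyve1 and C1q was 0.31. No relation with MHC class II can be read there, since 57 of the 65 cells had 0 such UMIs. C1qa varied with C1qb (0.59) and with C1qc (0.62) within those 65 cells.

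Within the macrophage-like cluster, some genes stood at nearly the same level in the 4 libraries and others did not. C1qa stood at 2721, 3504, 2655 and 2667 CPM in libraries 1 to 4, a mean of 2887 ± 412 (SD, n = 4), against 2008 ± 539 over all immune cells. Ctss stood at 2222 ± 155 CPM against 1646 ± 483, and Csf1r at 1023 ± 172 against 772 ± 378. Their spread over libraries relative to the mean was 14.3%, 6.97% and 16.8% in the cluster, against 26.8%, 29.4% and 49.0% over all immune cells. C1qb, listed at 0 in library 4, stood at 67.1% in the cluster, and C1qc, also listed at 0 there, at 75.4% against 69.6%. Lyve1 went from 39.7% over all immune cells to 68.8% in the cluster. These means rest on 2 cells each in libraries 2 and 4.

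**Figure D3:**
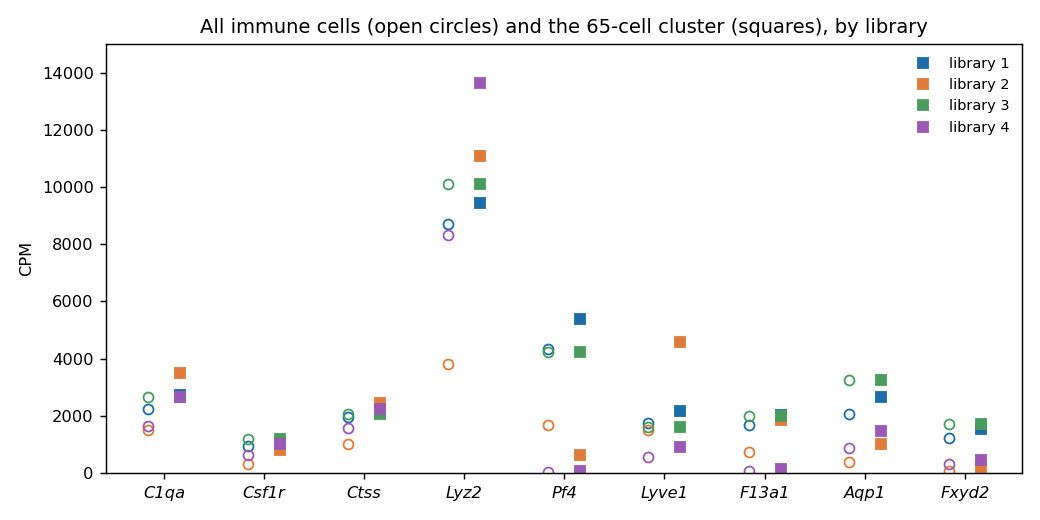
Level of 9 genes in CPM on a linear axis, in all immune cells (open circles) and in the 65-cell cluster (squares), with 1 symbol per library. The squares of C1qa, Csf1r and Ctss lie closer together than the circles, while those of Lyve1 spread from 922 to 4576 CPM.

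Immune cells were then compared with all other cells of the same library, to see which transcripts set them apart and how steady the difference was. UMIs were summed per library on each side, and libraries 1, 2 and 3, which had 5 or more immune cells, entered the fit. Of 9700 genes tested, 783 (8.07%) were higher and 1651 (17%) were lower in immune cells (edgeR quasi-likelihood test with library as a block, adjusted p under 0.05), and 25.1% differed in either direction. Of these 2434 genes, 2250 moved the same way in all 3 libraries. Counts of genes called in the lists below are to be read beside the shares of 8.07% higher and 17% lower. The authors' labels rest on these counts too, so the fit describes the size and steadiness of differences and not whether the population exists. The fit pooled the variance fully over genes, so its smallest p-values should not be ranked. Without library 1, 263 genes were higher and 649 lower, and without library 3, 461 were higher. The median log2 difference over all genes tested was -0.16.

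The C1q genes, Ctss and Csf1r differed widely between immune cells and the rest. In libraries 1, 2, 3 and 4, C1qa stood at 2244, 1507, 2655 and 1626 CPM in immune cells, and at no more than 2.17 CPM in other cells of any library. C1qb stood at 2403, 1183 and 2589 CPM in libraries 1 to 3 and C1qc at 2199, 1693 and 2457. Immune cells lay above other cells in each of these libraries, with no overlap. The log2 difference was 10.83 ± 0.59 (SE) for C1qa, 10.58 ± 0.58 for C1qb and 11.16 ± 0.60 for C1qc (edgeR, adjusted p = 4.27e-71, 2.70e-69 and 5.49e-72). Without the library block the adjusted p for C1qa was 0.000123 at nearly the same difference, 10.63. Ctss stood at 1947, 997, 2074 and 1566 CPM and Csf1r at 951, 325, 1189 and 622 CPM, against at most 1.98 CPM in other cells for either gene. Csf1r was lowest in library 2, in which B cell and platelet genes marked 7 of 10 immune cells.

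The 12 genes named for the size of their fitted rise also held Lilr4b (a receptor of myeloid cells), Itgam (the integrin CD11b), Cd163 (the scavenger receptor for hemoglobin), Ccr1, Gpr183, C3ar1 (the receptor for the complement fragment C3a), Ly86 and Cd86. For genes with 0 UMIs in other cells the fitted value depends on a prior count, so their order among these genes is not known. Lilr4b stood at 278, 139, 238 and 140.5 CPM and had 0 UMIs in other cells, which is at least 834-fold higher against a floor of 3 UMIs over the other cells of the fit. By the same measure Ccr1 was at least 700-fold, Gpr183 at least 594-fold, Ly86 at least 417-fold and Cd86 at least 374-fold higher. C3ar1 stood at 563, 742, 647 and 341 CPM. Cd163 stood at 476, 441 and 436 CPM in libraries 1 to 3 and was listed at 0 in library 4.

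The 6 genes named for the size of their fitted fall were chosen by the same rule, and their order is not known for the same reason. Cilp2, Col6a3, Aspn, Itih5, Plvap and Lox had 0 UMIs in the immune cells of libraries 1 to 3. These encode proteins of cartilage and tendon matrix, a collagen VI chain, a small proteoglycan, a hyaluronan-binding protein, the diaphragm protein of fenestrated endothelium and the enzyme that crosslinks collagen. Cilp2 stood at 703, 382 and 2945 CPM in other cells, so it was at least 252-fold lower in immune cells against the floor of 3 UMIs, and the other 5 genes were at least 70.1-fold to 95.4-fold lower.

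**Figure D4:**
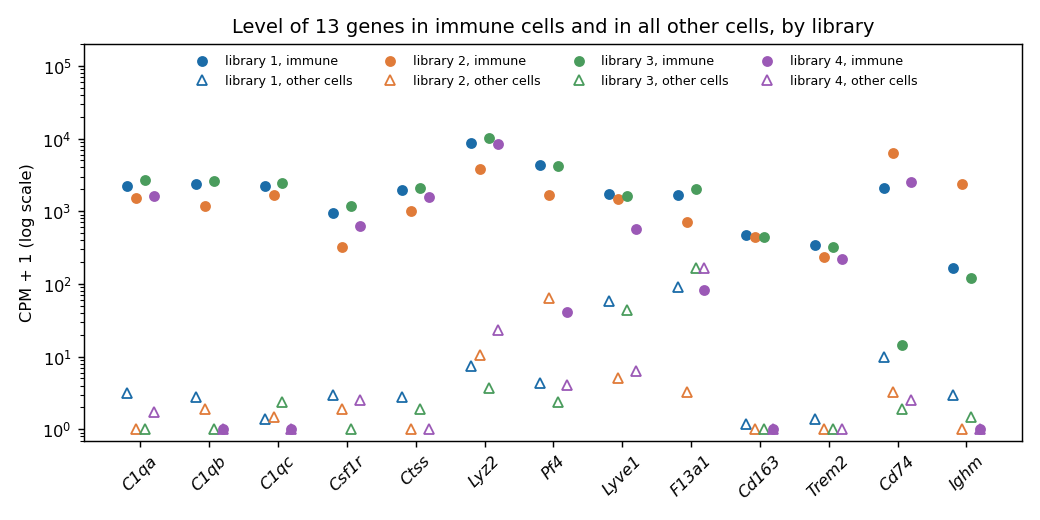
Level of 13 genes as CPM plus 1 on a log axis, for immune cells (filled circles) and all other cells (open triangles) of libraries 1 to 4. Immune cells lie above the other cells of the same library for C1qa, Csf1r, Ctss and Lyz2 in all 4 libraries, and Ighm is highest in library 2.

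Genes of complement were divided between detection and supply. Of 12 listed genes, 9 were tested, 5 were higher and 2 lower in immune cells, with a median log2 difference of 8.60 against -0.16 for all genes tested. Besides C1qa, C1qb and C1qc, the anaphylatoxin receptors C3ar1 and C5ar1 were higher. C5ar1 stood at 261, 46.4, 726 and 0 CPM, so its level varied widely between libraries. C3, the central component of the cascade, and C4b were lower. C3 stood at 11.1 CPM in library 1 and at 0 in the other libraries in immune cells, against 160, 0, 124 and 83.8 CPM in other cells, with 626 CPM in tendon fibroblasts 2. The calls for C3 and C4b were lost without the library block (adjusted p = 0.198 and 0.0948) and with DESeq2 (adjusted p = 0.677 and 0.0980).

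Receptors for antibodies and their signalling adaptors were all higher where they could be tested. Of 10 listed genes, 8 are in the table, 6 were tested and 6 were higher (median log2 difference 8.84). Fcer1g, the shared signalling chain of Fc receptors, stood at 1347, 835, 1043 and 1405 CPM and was found in 82 of 92 cells. Tyrobp, the adaptor of Trem2, stood at 973, 325, 779 and 662 CPM. Trem2, a lipid-sensing receptor of macrophages, stood at 346, 232, 317 and 221 CPM with 2 UMIs in all other cells. Fcgr3, Fcgr2b and the kinase Syk were higher as well, with log2 differences of 9.99 ± 0.61, 6.86 ± 0.61 and 4.49 ± 0.49 (SE).

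Of 10 genes of the vessel-associated Lyve1 program, 9 are in the table, 7 were tested and 7 were higher, with a median log2 difference of 6.39. Lyve1 stood at 1745, 1484, 1598 and 562 CPM in immune cells, found in 62 of 92 cells. Its next highest label was endothelial cells 3 at 1086 CPM, and Lyve1 is also a known gene of lymphatic endothelium. Pf4, a chemokine made by platelets and by some resident macrophages, stood at 4332, 1693, 4240 and 40.1 CPM and was found in 72 of 92 cells. Over all immune cells, library 4 lay far below the others for Pf4 and for F13a1, the coagulation factor XIII A chain. F13a1 stood at 1673, 719, 2008 and 80.3 CPM. In the macrophage-like cells alone, Pf4 stood at 5383, 644, 4240 and 65.9 CPM, so library 2 was low there too. F13a1 stood at 2028, 1859, 2008 and 132 CPM in those cells, which numbered 2 each in libraries 2 and 4. Library 2 also held 2 cells of the platelet class, so its 1693 CPM of Pf4 is not a value of macrophage-like cells alone. Folr2 stood at 306, 417, 304 and 161 CPM, with at most 0.755 CPM in other cells. The mannose receptor Mrc1 was not tested. It stood at 1052 and 1136 CPM in libraries 1 and 3, where 68 of the 92 cells held it, and is listed at 0 in libraries 2 and 4.

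Receptors for uptake of cells and debris were not uniformly higher. Of 13 listed genes, 10 are in the table, 7 were tested, 5 were higher and 2 lower (median log2 difference 1.15). The scavenger receptor Msr1 was higher by 8.56 ± 0.66 and Stab1 by 3.03 ± 0.38 on the log2 scale. Stab1 stood at 508, 232, 555 and 622 CPM, below its level of 667 CPM in endothelial cells 3. Mertk, a receptor for dying cells, and its ligand Gas6 were higher by smaller amounts, 1.07 ± 0.38 and 1.15 ± 0.36. Both calls were lost without library 1 (adjusted p = 0.294 and 0.370), without library 3 (0.806 and 0.123) and without the library block (0.141 and 0.104). The fatty acid receptor Cd36 was lower in the fit, at 539, 69.6, 1017 and 522 CPM against 1067, 1467, 483 and 922 CPM, with library 3 higher in immune cells. Against tendon fibroblasts alone its direction turned, to 6.76 on the log2 scale, and its highest label was endothelial cells 1 at 4406 CPM. The call for Cd36 was lost without library 1, without library 2 and without the block (adjusted p = 0.182, 0.510 and 0.316). Axl, a relative of Mertk, stood at 25.9, 139, 0 and 80.3 CPM in immune cells against 170, 34.9, 171 and 162 CPM, with library 2 higher in immune cells, and its call was lost without library 1 (adjusted p = 0.449) and without the block (0.134).

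Lysosomal genes formed the longest list. All 19 were tested, 12 were higher and 2 lower (median log2 difference 1.23). Lyz2 stood at 8706, 3826, 10104 and 8310 CPM in immune cells against at most 21.9 CPM in other cells. Its log2 difference was 9.82 ± 0.57. The legumain gene Lgmn stood at 1026, 557, 1215 and 662 CPM, and the cathepsin gene Ctsb at 2023, 997, 2351 and 1586 CPM, close to its 1976 CPM in bursal fibroblasts. Grn, which encodes the lysosomal protein progranulin, stood at 1293, 1391, 1281 and 1505 CPM, the narrowest range of these 4 genes. Ctsl and the cathepsin inhibitor gene Cst3 were lower in immune cells, with log2 differences of -1.56 ± 0.40 and -1.38 ± 0.39. Cst3 stood at 2271, 1600, 2959 and 8992 CPM against 4702, 2453, 7220 and 5187 CPM, and it reached 16373 CPM in tendon fibroblasts 1. The library 4 value, outside the fit, lay above that of other cells, but 393 of its UMIs came from 1 cell of the 16-cell cluster. The macrophage-like cells of library 4 stood at 1811 CPM, below other cells as in the fit. Both calls were lost without the library block (adjusted p = 0.0724 and 0.0699), without library 1 (0.0561 and 0.253) and against endothelial cells alone (0.248 and 0.228).

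Genes that handle iron and heme, which macrophages recover from red blood cells, were higher in 7 of 9 tested cases and lower in 1 (median log2 difference 1.68). Hmox1, the enzyme that opens heme, stood at 478, 603, 198 and 100.4 CPM in immune cells. Other cells stood at 41.7, 64.3, 21.9 and 30.9 CPM, with no overlap between the groups. The library 2 value rests on 26 UMIs from 1 cell outside the macrophage-like cluster. In the macrophage-like cells alone, Hmox1 stood at 322, 0, 198 and 165 CPM, so library 2 did not show the rise there. Ftl1, the light chain of the iron store ferritin, was found in 92 of 92 cells at 4035, 2759, 3685 and 2910 CPM. Its call was lost without library 1 (adjusted p = 0.174). The heavy chain Fth1 stood at 6186, 4614, 9312 and 2128 CPM and did not pass the test (log2 difference 0.77 ± 0.40, adjusted p = 0.166). Cp, the plasma copper protein ceruloplasmin, was lower, with 4 UMIs in immune cells. Hemoglobin transcripts made up at most 0.525% of the UMIs of any immune cell, and their part in these results was not tested.

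Genes of antigen presentation were less evenly distributed. Of 12 listed genes, 11 are in the table and only 5 passed the filter on low counts, all of them higher (median log2 difference 3.38, the same with Cd86 at its bound). H2-Aa, H2-Ab1 and H2-Eb1 were not tested, since they did not pass the filter on low counts, and they are listed at 0 in libraries 3 and 4. In library 2, H2-Aa stood at 1716 CPM and in library 1 at 724 CPM. Cd74 stood at 2099, 6423, 13.2 and 2549 CPM in libraries 1 to 4. It was lowest in library 3, where 9 of 9 immune cells were macrophage-like, and highest in library 2, where 5 of 10 were B-like. H2-DMa was higher by 3.28 ± 0.53 on the log2 scale, a call lost without the library block (adjusted p = 0.0970) and without library 1 (0.366). Cd40 stood at 37.1, 23.2, 52.8 and 803 CPM, and 61.5% of its UMIs came from 1 cell.

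Of 11 transcription factors of myeloid cells, 10 were tested and 8 were higher (median log2 difference 3.37). Spi1, which encodes PU.1, stood at 446, 232, 449 and 201 CPM with 2 UMIs in all other cells. Maf, which is shared with other cells, stood at 1076, 557, 1202 and 582 CPM. Maf reached 1166 CPM in endothelial cells 3. Ikzf1, Cebpa and Irf8 were higher by 8.94 ± 0.79, 3.49 ± 0.40 and 3.05 ± 0.45 on the log2 scale. Cebpb and Runx1 did not pass, with adjusted p = 0.263 and 0.0510.

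Among receptors for cytokines and chemokines, 11 of 15 were tested and 6 were higher (median log2 difference 1.88, the same with Ccr1 at its bound). Csf2ra stood at 117, 162, 145 and 201 CPM, and Il6ra at 272, 278, 370 and 221 CPM. Il4ra was higher by 1.88 ± 0.41 on the log2 scale, a call lost without library 1 (adjusted p = 0.0846) and against endothelial cells alone (0.247). Ccr2 and Cx3cr1, receptors of blood monocytes and of some resident macrophages, were not tested, and UMIs of either gene came from library 1.

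Few signalling proteins made by immune cells could be tested. Of 15 chemokine genes, 14 are in the table, 4 were tested and 3 were higher, Pf4, Ccl2 and Cxcl16 (median log2 difference 3.93). Ccl2, which attracts monocytes, stood at 191, 278, 26.4 and 0 CPM, found in 28 cells. Cxcl16 stood at 119, 46.4, 66.0 and 562 CPM, and in library 4 25 of its UMIs came from 1 cell of the 16-cell cluster. Of 14 cytokine and growth factor genes, 6 were tested, 1 was higher and 3 were lower (median log2 difference -1.51). Tgfb1 was higher by 1.04 ± 0.36, at 296, 464, 145 and 281 CPM against 121, 136, 65.2 and 154 CPM. Its call was lost without the library block (adjusted p = 0.102), without library 1 (0.398), without library 3 (0.186) and without the B-like cells (0.0937). Igf1, Vegfa and Hbegf were lower. Igf1 stood at 108, 69.6, 92.5 and 120 CPM in immune cells against 256, 76.5, 884 and 229 CPM, with 1633 CPM in tendon fibroblasts 2, and its call was lost without the block (adjusted p = 0.0686), without library 3 (0.0670) and against endothelial cells alone (0.898). Vegfa had 6 UMIs in immune cells, and its call was lost without library 1 (adjusted p = 0.492). Hbegf had 6 UMIs in immune cells and 319, 302, 396 and 595 CPM in other cells. Il1b was found in 3 cells, Tnf in 17 and Il6, which had UMIs in other cells of all 4 libraries, in 0 of 92, which at a floor of 3 cells allows a share of up to 3.26% of cells with an Il6 UMI.

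Of 8 genes linked to lipid-laden macrophages, 8 were tested, 3 were higher (Trem2, Apoe and Lgals3) and 5 lower (Cd9, Gpnmb, Spp1, Lpl and Fabp5), with a median log2 difference of -1.07. Spp1, which encodes the matrix protein osteopontin, stood at 18.5, 0, 145 and 20.1 CPM in immune cells against 1127, 900, 1929 and 1406 CPM in other cells. Apoe stood at 1186, 2899, 462 and 1004 CPM against 437, 488, 480 and 279 CPM. In library 2, 104 of its UMIs came from 1 cell of the 16-cell cluster. The macrophage-like cells alone stood at 755, 572, 462 and 1581 CPM. Immune cells were higher in 2 of the 3 libraries of the fit, and the call (adjusted p = 0.0443) was lost without library 1 (0.671) or library 2 (0.532) and with DESeq2 (0.497). The galectin gene Lgals3 stood at 1054, 116, 1492 and 442 CPM, and its call was lost without library 1 (adjusted p = 0.718), without library 3 (0.457) and without the block (0.268). Gpnmb had 4 UMIs in immune cells, was higher there in library 2, and its call was lost without library 1 (adjusted p = 0.168) and without the block (0.213).

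Interferon-induced genes did not move as a block. Of 10 tested, 1 was higher and 6 were lower in immune cells (median log2 difference -1.94). Ifi27l2a stood at 1330, 417, 1070 and 20.1 CPM against 49.0, 24.0, 62.9 and 40.0 CPM, so library 4 did not follow libraries 1 to 3. Ifit1, Ifit2, Ifit3, Isg15, Bst2 and Rsad2 were lower. Isg15 stood at 9.26, 69.6, 39.6 and 0 CPM in immune cells against 129, 104, 27.8 and 52.8 CPM, which overlap, and its call was lost without library 1 (adjusted p = 0.801) and without the block (0.0836). Rsad2 had 1 UMI in immune cells, a 56.2-fold lower level over the fit (exact 95% counting interval 10.1 to 2223), and its call was lost without library 1 (adjusted p = 0.0604).

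Of 10 matrix proteases and inhibitors, 6 are in the table, 5 were tested and 2 were lower, Mmp14 and Timp1 (median log2 difference 0.24). Timp2, an inhibitor of matrix metalloproteinases, stood at 1454, 1368, 1717 and 1244 CPM in immune cells and 1058, 472, 1780 and 915 CPM in other cells and did not pass the test. Ctsk, the collagen-degrading cathepsin of osteoclasts, was found in 14 immune cells, at 350, 0, 79.2 and 0 CPM. Its level in other cells was 327, 20.4, 229 and 194 CPM, which overlap. Genes that respond to tissue dissociation were higher in 0 of 15 tested and lower in 5, with a median log2 difference of -0.76. Over all genes tested, 8.07% were higher and 17% lower, and a list of this size was not tested against those shares. Fos stood at 535, 92.8, 568 and 80.3 CPM against 1399, 2075, 1196 and 1074 CPM and Egr1 at 328, 301, 225 and 20.1 CPM against 794, 749, 587 and 624 CPM, without overlap for either gene. Of 11 cell cycle genes, 3 were tested and 0 passed. Mki67 was found in 9 immune cells, with 46.7% of its UMIs in 1 cell.

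**Figure D5:**
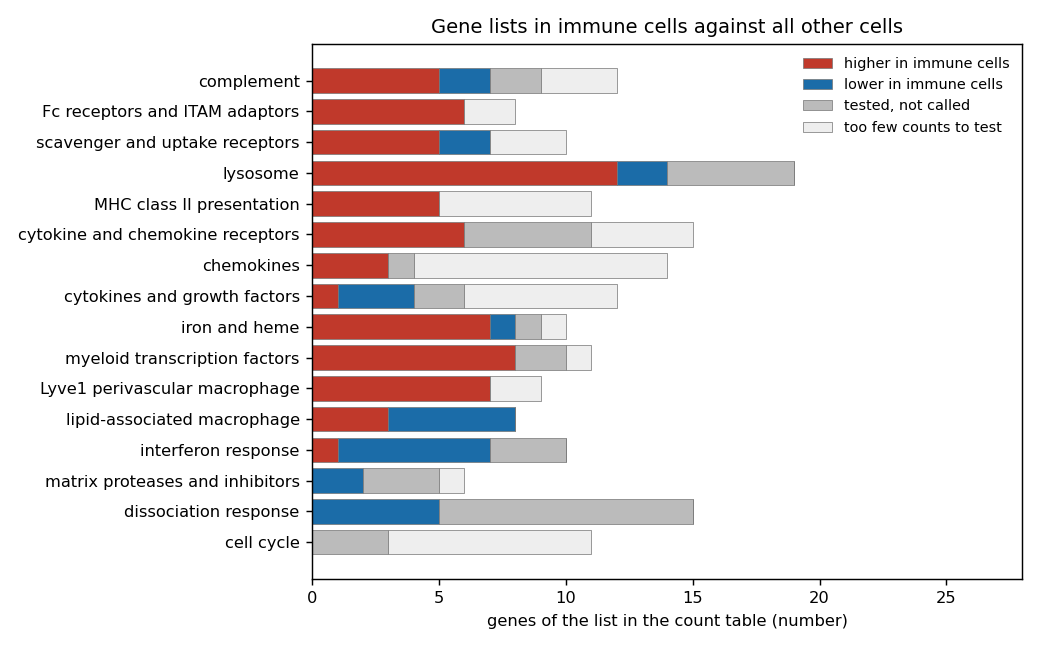
Number of genes of each list that were higher, lower or not called in immune cells against all other cells, and the number with too few counts to be tested. Of the genes tested, the lists of Fc receptors, MHC class II presentation and the Lyve1 program hold only higher calls, while the interferon and dissociation lists hold mostly lower calls or none.

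Most marker genes of other tendon cells were lower in immune cells, with exceptions in the pericyte and Schwann cell lists. The tendon fibroblast list (9 genes, all lower) summed to 289, 162, 713 and 462 CPM in the immune cells of libraries 1 to 4 against 51120 CPM in other cells, and 28 immune cells held 3 or more of its genes. The endothelial list (6 of 6 lower) summed to 37.1, 23.2, 13.2 and 60.2 CPM, and 0 immune cells held 3 or more of its genes. Of the pericyte list 4 of 5 tested genes were lower and of the Schwann cell list 4 of 5. The exceptions were Cspg4, a proteoglycan, and S100b, a calcium-binding protein. Cspg4 stood at 245, 23.2, 158 and 221 CPM in immune cells against 104, 58.4, 140 and 197 CPM in other cells, which overlap, and was found in 48 of the 65 macrophage-like cells. S100b stood at 59.3, 0, 13.2 and 100.4 CPM against 47.2, 113, 28.3 and 72.4 CPM, which also overlap. The red blood cell list was lower in 5 of 5 genes, with a median log2 difference of -8.32. Type I and type III collagen genes made up at most 0.171% of the UMIs of an immune cell, with a median of 0.0163% against 0.0230% in endothelial cells 1. In other cells, 24 of 1099 held a C1q UMI, with at most 4 such UMIs in a cell. B cell genes also reached the sums: Ighm stood at 165, 2342, 119 and 0 CPM, and the platelet gene Ppbp at 9.26, 441, 0 and 0 CPM, whose call was lost without the block (adjusted p = 0.290). With the 8 B-like cells left out, an alternative chosen after seeing the data, 815 genes were higher and 1679 lower, and 714 and 1612 of these were among the genes called with them.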

How the data were processed

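The authors deposited raw UMI counts per gene and cell and a table with each cell's library and label. Per the submitters' processing notes, Cell Ranger, Seurat 2.3.4, R 3.5.2 and build mm10 were used, and the roles of these tools, the gene annotation and the gene and cell filters are not given in the sources used here. Of 15750 gene rows, 4 with repeated names were left out (0.0186% of UMIs). Counts over the lists include all their genes, and the values of a few are not reported here. The members and the gene lists were chosen with earlier results of these data known.

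Counts were summed per library for immune cells and for all other cells, and sums of 5 or more cells were tested in R 4.3.3 with edgeR 4.0.16 (limma 3.58.1), with TMM, filterByExpr, library as a block and Benjamini-Hochberg adjustment over all genes tested. Library 4, with 3 immune cells, did not enter the fit. The block follows from the design, since each library gives 1 sum of either kind. The deviations of such sums correlated at 0.0184, 0.0934 and 0.126 over genes in libraries 1, 2 and 3. On simulated counts for this comparison (9901 genes tested, 200 changed by 2 on the log2 scale) the test recovered 30% of the changed genes, and 4.76% of its calls were false. The simulation gave every gene the same dispersion of 0.1 and both sums of a library the same shift. The rate of false calls in the real counts, which need not share these settings, is therefore not known. The prior degrees of freedom were infinite with the block and 5.29 without it. Alternatives used DESeq2 1.42.0 (Wald test), other filters, comparison cells, depths and libraries. All genes of the lists could be named with values, besides the 12 largest rises and 6 largest falls with the same direction in every library of the fit and a mean of 100 or more CPM on the higher side, and the 5 genes that led each cluster by CPM ratio with 50 CPM added on both sides.

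Immune cells were clustered by Ward's method on 10 principal components of 1000 variable genes found in 5 or more immune cells, from ln(1 + 10000 × count / total). No doublet caller was run. For shares of cells with a UMI, cells were thinned to 2400 UMIs, which left out 5 immune and 109 other cells. Intervals and floors (3 counts) cover counting error only. Other steps used python 3.11.15, numpy 2.4.6, pandas 2.3.3 and scipy 1.17.1.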

Additional observations from a re-analysis of the deposited data

Results flagged for a closer look

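Of 90 values compared over the 4 libraries, 16 had 1 library far from the other 3. Chance alone flags about 1 in 20 groups of this size, but this rate does not hold for 6 of the 16, where the other 3 libraries are at 0 and any UMI sets 1 library apart (Lox, C3, Hbegf, Rsad2, Timp1 and Fscn1). The share of immune cells was high in library 1, at 12.1% against 2.75% to 4.07% in the others. Library 4, with 3 immune cells, stood apart for 6 genes. It was listed at 0 for Cd163, against 436 to 476 CPM elsewhere, and at 20.1 CPM for Lox, which is 1 UMI. It was high for Cbr2 (642 CPM), Cd40 (803 CPM), Cxcl16 (562 CPM) and Fscn1 (2670 CPM). The UMIs of Fscn1 and Cd40 all came from 1 cell of the 16-cell cluster. That cell also held 25 UMIs of Cxcl16, against 3 in the macrophage-like cells of library 4. Library 2, with 5 B-like cells among 10, was high for Ighm (2342 CPM), Ppbp (441 CPM) and Vegfa (46.4 CPM, which is 2 UMIs). Library 3 was high for Spp1 (145 CPM) and Rsad2 (13.2 CPM, which is 1 UMI), and C4b was at 0 there, against 40.1 to 46.4 CPM elsewhere. In library 1, C3 and Hbegf stood at 11.1 CPM each and Timp1 at 1.85 CPM, while the other libraries were at 0.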

How the results depend on the processing

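Genes higher and lower in immune cells numbered 783 and 1651. Leaving out 1 library at a time gave 263 to 1000 higher and 649 to 1907 lower, the lowest counts without library 1. DESeq2 called 415 and 1043, and cells thinned to 2400 UMIs gave 406 and 771 among 5225 genes tested. Against endothelial cells alone 1071 were lower, and against tendon fibroblasts alone 853. Size factors of DESeq2 within edgeR moved the median of all genes from -0.16 to -0.29 on the log2 scale and gave 688 and 1840. In the fit without the library as replicate block, 629 were higher and 1343 lower. Of 91 named genes in the fit, 53 could be tested under every alternative run, and 35 of these kept their direction and their side of the threshold in each (fewest tested: 76 against endothelial cells alone). Directions turned for Cd36 (6.76 against tendon fibroblasts), Runx1 (-0.41 against tendon fibroblasts), Timp2 (-0.19 without library 2 against 0.43 without library 3, -0.96 against tendon fibroblasts, -0.052 when thinned) and Aqp1 (-0.08 without library 1, -0.44 without library 3 against 1.51 without library 2, -0.92 against endothelial cells), and the cause was not tested. The difference in UMIs per cell was 1597 with all libraries and ranged from -1451.5 without library 4 to 3358 without library 2, that in genes per cell from -120 to 341 (-192 without red blood cells), and that in mitochondrial share from -0.0600 to 0.166 percentage points (-0.497 without red blood cells). The mean share of immune cells ranged from 3.44% without library 1 to 6.55% without library 4. The largest cluster held 82 cells with 500, 1000 or 2000 genes and 65 at 6 clusters. Including library 4, an alternative chosen after seeing the data, gave 655 and 1544. Testing genes with a UMI in every library of the fit, also chosen then, gave 780 and 1647. The 3 to 10 immune cells of libraries 2 to 4 limit what can be seen of rare immune states.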

Other observations

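Fxyd2, which led the macrophage-like cells, stood at 1208, 69.6, 1717 and 321 CPM in immune cells of libraries 1 to 4 against 3.16, 1.81, 2.74 and 31.7 CPM in other cells (log2 difference 7.98 ± 0.56, edgeR adjusted p = 1.75e-43). Aqp1, which led the same cells, was not: it stood at 2066, 371, 3249 and 883 CPM in immune cells and at 731, 1117, 642 and 884 CPM in other cells, did not pass the test (adjusted p = 0.367) and was highest in nerve cells 3 at 4108 CPM. Vsig4, a complement receptor of resident macrophages, was found in 14 immune cells of library 1, with 45.4% of its UMIs in 1 cell.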
